A study of Mus musculus with 6 samples.

Results

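Cadherins, gap junctions and pannexins of calvarial osteoblasts were represented by 8 genes, chosen by name, of the 55471 genes in the deposited count table. The genes were the cadherins Cdh2, Cdh11 and Cdh13, the connexins Gja1 and Gjc1, the pannexins Panx1 and Panx3, and Ctnnb1, which encodes β-catenin. All 8 passed the filter on low counts that left 13826 genes for testing. Their transcripts were measured by poly(A) RNA sequencing of primary osteoblasts from C57BL/6 mice, which were isolated by enzyme digestion from the calvaria (skull cap) at 3 days of age and then cultured. TCKO cells came from mice in which Prx1-Cre, a recombinase expressed in limb and part of the skull mesenchyme, was combined with Tet1 fl/fl, Tet2 fl/fl and Tet3 fl/fl, the floxed alleles of all TET genes, whose products oxidise methylated cytosine in DNA. WT cells were labelled wild type, and whether they carried floxed alleles or Cre is not given in the sources used here. Each genotype had 3 libraries, and nothing in the labels says that these came from separate animals or cultures, so p-values measure the spread between these libraries only.

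Osteoblasts on a bone surface and osteocytes within bone are joined to each other. Cadherins hold neighbouring membranes together through their extracellular repeats, and inside the cell the classical cadherins bind β-catenin, which links them through α-catenin to actin. β-catenin that is not at the membrane is either marked for degradation by the complex of APC, axin and GSK3 or enters the nucleus, where it acts with TCF and LEF factors downstream of Wnt. Connexins form hexameric hemichannels that dock between adjacent cells into gap junctions, through which ions and small metabolites pass. Pannexins form related channels that mostly open to the outside of a single cell and release ATP.

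The libraries held between 8019999 and 10177214 counts, and 3 counts, the upper limit that a count of 0 allows, equalled 0.295 to 0.374 CPM, the count per 1000000 counts of a library. Within each genotype, replicates 1 and 2 resembled each other far more than either resembled replicate 3. The chi-square of their counts per degree of freedom was 1.69 in WT and 2.04 in TCKO, and lay between 16.5 and 23.3 for pairs with replicate 3. Replicates 1 and 2 thus still differed by more than counting noise, which does not show that they came from separate animals or cultures. They were kept as separate libraries in the main fit. With them summed, 386 genes had an adjusted p under 0.05 in place of 2447. The share of mitochondrial counts was 1.11% to 1.24% in replicates 1 and 2 and 2.22% and 2.47% in replicate 3 of WT and TCKO. TCKO replicate 3 was the only library with Xist above 4 counts (4583 counts) and had 0 counts of the Y-linked Ddx3y, which reached 675 to 1094 in the others, so sex and this library cannot be told apart. Tet1 counts were 98 to 131 in WT and 51 to 68 in TCKO, while Tet2 (132 to 213 and 121 to 161 counts) overlapped and Tet3 had 452 to 611 and 622 to 795 counts. Counts over whole genes do not check a deletion of part of a gene. The summed level of 12 osteoblast markers was 39065 to 42778 CPM in WT and 18992 to 27792 CPM in TCKO. Of the 12, 9 were tested and 2 had at most 3 counts in every library, so the sum does not describe each marker. Bglap, the osteocalcin gene, did not exceed 2 counts in any library.

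Of the 8 genes, Cdh2 and Gjc1 were higher in TCKO, Panx3 was lower, and the other 5 did not pass the test (edgeR quasi-likelihood test, Benjamini-Hochberg adjusted p under 0.05 over all 13826 genes). The same rule called 17.7% of all tested genes, 9.07% higher and 8.63% lower. Cdh2 and Panx3 also passed a fold change of 2, which 6.35% of tested genes did with the adjusted p (3.16% higher, 3.19% lower). The replicate numbers, treated as pairs in a second fit with the replicate as a block, left those 3 calls and added Cdh11 and Panx1 as lower, which makes 3 lower genes in place of 1. When replicates 1 and 2 were also summed in that blocked fit, both added calls and that of Gjc1 (adjusted p = 0.148) were lost, which leaves 1 lower gene and 1 higher gene. In CPM, the 3 WT and 3 TCKO libraries did not overlap for Cdh2, Gjc1, Panx1 and Panx3, as was the case for 38.3% of all tested genes. These were the differences of bulk samples, in which fewer cells of a type and less RNA per cell cannot be told apart.

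**Figure D1:**
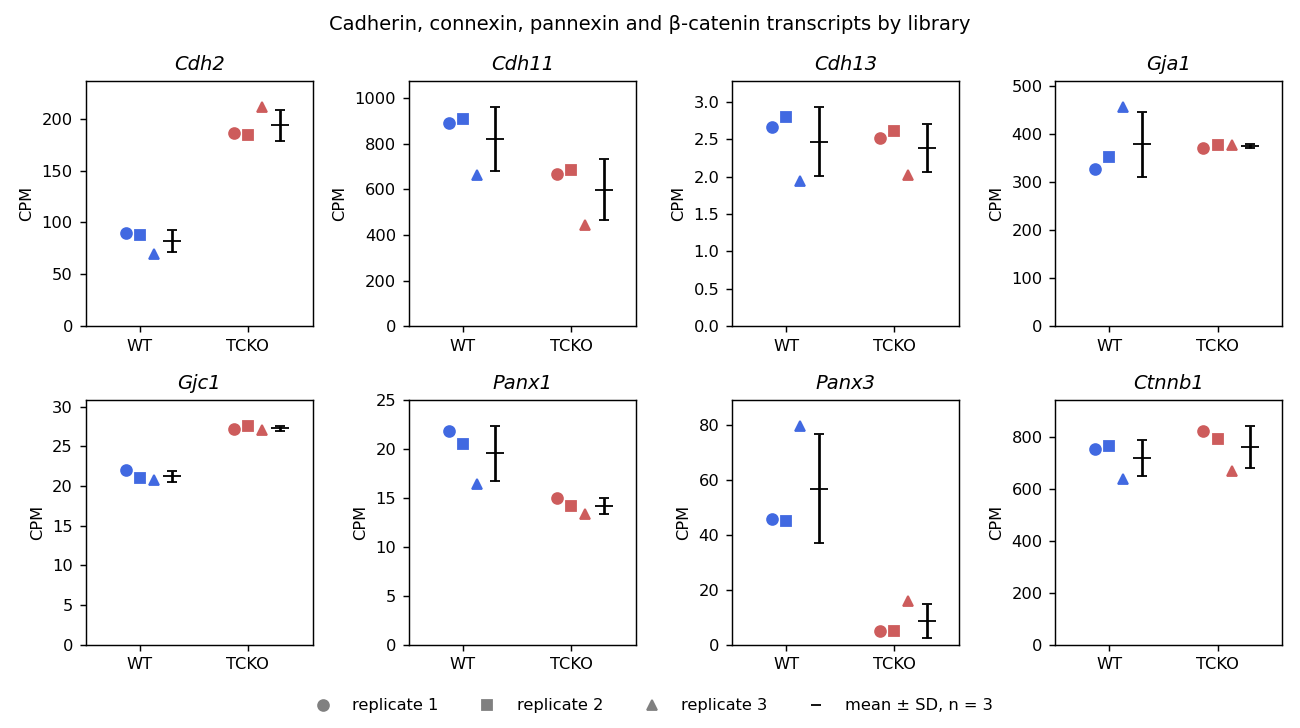
Expression of each of the 8 genes by library, on a linear CPM axis that starts at 0 in every panel (blue, WT; red, TCKO; circles, squares and triangles, replicates 1, 2 and 3; bars, mean ± SD, n = 3). The genotypes separate for Cdh2, Gjc1, Panx1 and Panx3, and replicate 3 lies apart from the other replicates for Cdh11 and Panx3.

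Of the 8 genes, 3 had a promoter window in the RefSeq table used here (build GRCm38.p6), which holds the 250 bases before and 50 bases after each annotated start. TET enzymes act on cytosines that are mostly followed by guanine, so the windows are shown, 5′ to 3′ on the strand of the gene, with every CG in capitals.
Panx1, chr9:15045429-15045728, minus strand: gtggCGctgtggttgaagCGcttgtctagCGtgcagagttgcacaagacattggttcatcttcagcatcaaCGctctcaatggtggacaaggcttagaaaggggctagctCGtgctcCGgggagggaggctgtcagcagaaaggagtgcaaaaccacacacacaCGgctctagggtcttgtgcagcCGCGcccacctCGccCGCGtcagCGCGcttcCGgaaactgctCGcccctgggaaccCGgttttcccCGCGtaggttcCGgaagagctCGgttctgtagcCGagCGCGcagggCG
Ctnnb1, chr9:120933150-120933449, plus strand: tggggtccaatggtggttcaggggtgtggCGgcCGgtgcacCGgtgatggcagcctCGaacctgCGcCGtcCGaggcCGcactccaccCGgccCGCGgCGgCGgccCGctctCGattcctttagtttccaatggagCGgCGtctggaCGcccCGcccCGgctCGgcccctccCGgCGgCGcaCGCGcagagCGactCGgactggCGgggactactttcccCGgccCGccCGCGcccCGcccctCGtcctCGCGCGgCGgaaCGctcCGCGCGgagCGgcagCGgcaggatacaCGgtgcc
Gja1, chr10:56377050-56377349, plus strand: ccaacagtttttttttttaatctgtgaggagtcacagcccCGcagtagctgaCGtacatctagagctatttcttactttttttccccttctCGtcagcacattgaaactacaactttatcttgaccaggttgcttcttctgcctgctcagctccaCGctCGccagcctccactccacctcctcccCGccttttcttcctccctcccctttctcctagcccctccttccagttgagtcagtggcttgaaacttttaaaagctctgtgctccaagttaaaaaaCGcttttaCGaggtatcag
The Ctnnb1 window held 46 CG and a second, overlapping Ctnnb1 window held 51, the Panx1 window 25 and the Gja1 window 8, against a median of 7 over the 32851 windows of the table. At least as many CG as in the first Ctnnb1 window were found in 1.65% of all windows, as in Panx1 in 18.4% and as in Gja1 in 48.6%. The core letters bound by RUNX factors, TGTGGT searched on both strands, stood at bases 8 to 13 and 153 to 158 (reversed) of the Panx1 window. One such match or more was present in 16.8% of windows, and 2 or more in 1.81%. The letters TGAGTCA, a common AP-1 site that was searched on both strands, were at bases 232 to 238 of the Gja1 window and in 5.20% of all windows. No match for either was found in the Ctnnb1 windows. Methylation was not measured in these libraries, and a match of letters is a description, not a bound site.

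Cdh2 encodes N-cadherin, the cadherin of mesenchymal condensations and of osteoblast contacts (ENSMUSG00000024304, chromosome 18, 16588877 to 16809246, minus strand, GRCm38). It had 739, 877 and 577 counts in replicates 1, 2 and 3 of WT against 1635, 1480 and 1882 in TCKO, or 89.5, 87.5 and 69.9 CPM against 187, 184 and 211 CPM. Every TCKO library was above every WT library, and replicate 3 was the lowest of WT and the highest of TCKO. The mean rose from 82.3 ± 10.8 CPM to 194 ± 15.0 CPM (SD, n = 3), with a log2 ratio of 1.24 ± 0.11 (SE; edgeR adjusted p = 0.000492). The call held in all 18 fits, the main one and 17 alternatives, with log2 fold changes from 1.07 to 1.33.

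Cdh11, cadherin-11, is named osteoblast cadherin for its abundance in this lineage (ENSMUSG00000031673, chromosome 8, 102632095 to 102785642, minus strand). Its counts were 7379, 9132 and 5461 in WT against 5869, 5506 and 3950 in TCKO, which scaled to 893, 911 and 662 CPM and to 670, 684 and 443 CPM. Replicate 3 was the lowest library of both genotypes, and WT replicate 3 lay below TCKO replicates 1 and 2, so the groups overlapped. The log2 fold change was -0.46 ± 0.19 and did not pass (edgeR adjusted p = 0.140). Within replicate numbers the difference, in log2(CPM + 2), was -0.41 for the means of replicates 1 and 2 and -0.58 for replicate 3. With the replicate block the log2 fold change of -0.47 passed (edgeR adjusted p = 0.00630), as it did with no filter beyond 1 count (0.0319) and without replicate 3 of both genotypes, while over the other fits the adjusted p reached 0.409. With replicates 1 and 2 summed in the blocked fit the call was lost (-0.50, 0.0898).

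Cdh13, T-cadherin, lacks a cytoplasmic tail and is held in the membrane by a lipid anchor, so it does not bind catenins (ENSMUSG00000031841, chromosome 8, 118283733 to 119324921, plus strand). It had 22, 28 and 16 counts in WT against 22, 21 and 18 in TCKO, and by RPKM it stood at percentiles 1.79 and 1.53 of the tested genes. The TCKO libraries lay within the range of WT, with means of 2.47 ± 0.46 and 2.38 ± 0.32 CPM. The log2 fold change was -0.06 ± 0.26 (edgeR adjusted p = 0.904) with a 95% interval, from its SE, of -0.78 to 0.67. Changes within this interval are not excluded, and the smallest detectable change was not computed.

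Cdh11 and Cdh2 together supplied most of the classical cadherin transcript, so their proportion was compared as a share of the summed RPKM (reads per kilobase of exon, scaled to library size) of 18 classical cadherin genes. Cdh11 held 84.3%, 85.2% and 82.6% in WT and 69.8%, 71.2% and 55.7% in TCKO. Cdh2 held 9.32%, 9.03% and 9.63% in WT and 21.5%, 21.1% and 29.3% in TCKO. The shares of each gene did not overlap between genotypes, and TCKO replicate 3 stood farthest from WT for both. The Cdh11 share differed by -18.4 percentage points (84.0% ± 1.33 and 65.6% ± 8.60, SD, n = 3; exact permutation test, two-sided, p = 0.1, the smallest that 3 against 3 allow). The ratio of Cdh11 to Cdh2 in RPKM was between 8.57 and 9.43 in WT and between 1.90 and 3.37 in TCKO, while the sum over the 18 genes was 110 ± 17.1 RPKM in WT and 102 ± 10.7 RPKM in TCKO (exact permutation test, two-sided, p = 0.5, n = 3).

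**Figure D2:**
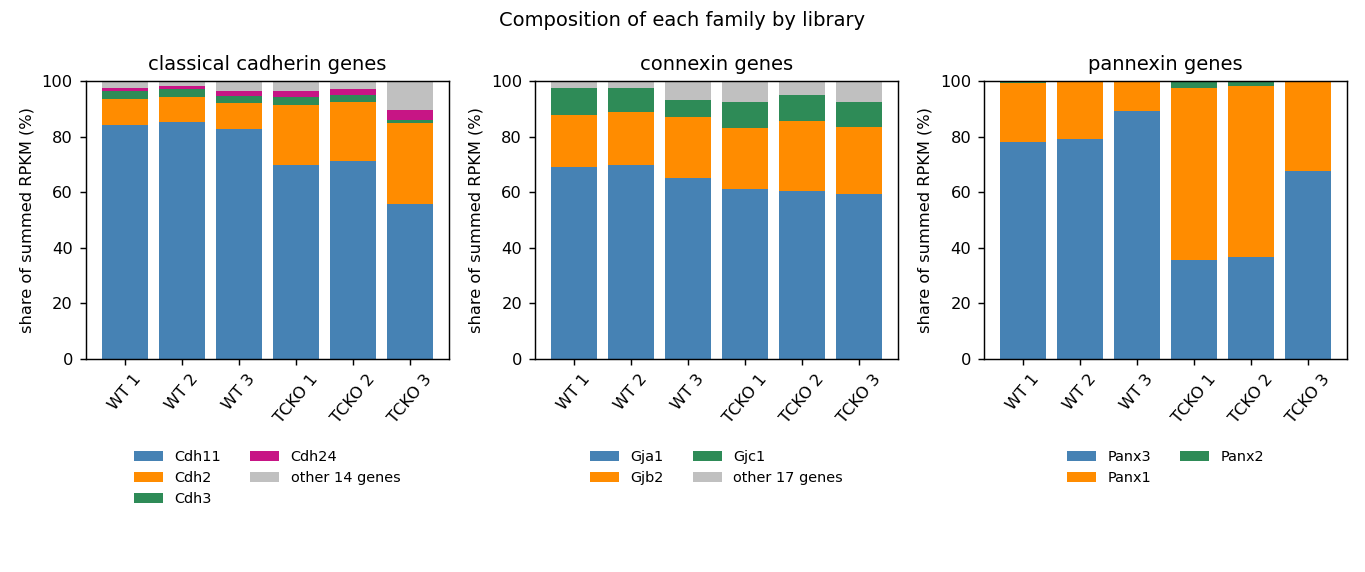
Share of summed RPKM, in percent, held by each gene of the 18 classical cadherins, 20 connexins and 3 pannexins in each library. The Cdh11 share was 82.6% to 85.2% in WT and 55.7% to 71.2% in TCKO, the Gja1 share 65.1% to 69.8% and 59.3% to 61.1%, and the Panx3 share 78.2% to 89.3% and 35.7% to 67.5%.

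Of the 16 other classical cadherins, 5 were tested, 2 were higher in TCKO, 0 were lower and 3 did not pass. Over all tested genes, 9.07% were higher and 8.63% lower. The median log2 fold change of the 5 cadherins was 0.96, the value of Cdh24, against 0.00 over all tested genes. With the replicate block 3 were higher (Cdh10 added, log2 fold change 1.27, edgeR adjusted p = 0.0156), and with replicates 1 and 2 summed in the blocked fit 0 were (Cdh18, 0.0622, and Cdh24, 0.0550). Cdh18 had 18, 21 and 18 counts in WT against 49, 31 and 160 in TCKO (log2 fold change 2.09 ± 0.58, edgeR adjusted p = 0.0441). It became 1.14 without TCKO replicate 3, and the call was lost without WT replicate 1 (adjusted p = 0.134), WT replicate 2 (0.144), WT replicate 3 (0.0847) or TCKO replicate 1 (0.0593). Cdh24 rose from 4.81 ± 0.369 to 9.32 ± 1.78 CPM (log2 fold change 0.96 ± 0.19, edgeR adjusted p = 0.0135), a call lost without WT replicate 1 (0.0575) or WT replicate 2 (0.0652). Cdh3, the P-cadherin gene and the third most abundant of the family in WT, had 83 to 144 counts in WT and 40 to 120 in TCKO (log2 fold change -0.37 ± 0.37, adjusted p = 0.540). Cdh1 and Cdh5, the cadherins of epithelium and of endothelium, had at most 3 and 7 counts in any library.

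Ctnnb1, β-catenin, was the most abundant of the 8 genes per kilobase in both genotypes (ENSMUSG00000006932, chromosome 9, 120929216 to 120960507, plus strand). Counts were 6238, 7671 and 5268 in WT against 7235, 6372 and 5974 in TCKO, or 755, 765 and 639 CPM and 826, 792 and 670 CPM. Replicate 3 was again lowest in each genotype, and the genotypes overlapped. The log2 fold change was 0.08 ± 0.11 (edgeR adjusted p = 0.656) with a 95% interval from -0.23 to 0.39, and it passed in 0 of 18 fits, with adjusted p from 0.0656 to 0.980. Exons of Ctnnb1 share 759 bases with Ulk4 on the opposite strand, which had 7 to 14 counts, and 23 bases with Mir7090, which had at most 1. No other gene of the 8 shared exon bases with another gene.

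Among 14 catenins and adherens junction partners, 12 were tested, of which 5 were higher, 1 was lower and 6 did not pass, with a median log2 fold change of 0.33, where 17.7% of all tested genes were called in either direction. The replicate block made 6 higher (Pkp4 added, 0.32, edgeR adjusted p = 0.0413), and with replicates 1 and 2 summed in the blocked fit 4 were, with 1 lower in each. Jup, which encodes γ-catenin (plakoglobin), the closest relative of β-catenin, rose from 62.8 ± 16.0 to 103 ± 6.88 CPM (log2 fold change 0.71 ± 0.17, edgeR adjusted p = 0.0247). It was no longer called without WT replicate 2 (0.0945), TCKO replicate 1 (0.0857) or TCKO replicate 2 (0.0576). Ctnnd2, a δ-catenin gene best known from neurons, had 45, 32 and 65 counts in WT against 89, 99 and 196 in TCKO (log2 fold change 1.44 ± 0.38, adjusted p = 0.0376). It became 1.05 without TCKO replicate 3 (0.0603) and was also lost without WT replicate 1 (0.121), WT replicate 2 (0.121) or TCKO replicate 2 (0.0739). The nectins, immunoglobulin-like adhesion molecules that join adherens junctions through afadin, included Nectin2 and Nectin3, which rose by 0.51 each on the log2 scale (edgeR adjusted p = 0.0301 and 0.0121). Nectin2 was lost without WT replicate 1 (0.110), WT replicate 2 (0.120) or TCKO replicate 2 (0.0792), and Nectin3 without WT replicate 1 (0.0542) or WT replicate 2 (0.0617).

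Vcl, which encodes the actin linker vinculin, was higher by a log2 fold change of 0.34 ± 0.10 (adjusted p = 0.0465). The call held in 1 of the 6 fits that each left out a library, the fit without WT replicate 3 (0.0358). Vcl shares 2090 exon bases with Ap3m1 on the opposite strand, and the strand setting of the counting is not given in the sources used here, so its value is less certain. Arvcf, a p120-catenin relative, was the lower gene of this list at -0.88 ± 0.08 (adjusted p = 0.000521) and passed in all 18 fits, with the same uncertainty from the strand setting. Ctnna1, α-catenin, the most abundant of the tested partners, had a log2 fold change of 0.17 ± 0.07 (adjusted p = 0.127).

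The 7 genes of the β-catenin destruction complex were all tested, with a median log2 fold change of 0.04. Of these, 1 was higher, 0 were lower and 6 did not pass, where 17.7% of all tested genes were called. The gene that passed was Axin2, which is itself a target of Wnt signalling, with 80, 117 and 85 counts in WT against 129, 113 and 147 in TCKO. Its counts overlapped before scaling, and its log2 fold change of 0.51 ± 0.14 (edgeR adjusted p = 0.0368) passed in none of the fits that left out a single library (adjusted p from 0.0585 to 0.139) and not with DESeq2 (0.0598). Of 8 nuclear partners of β-catenin, 7 were tested, with a median of -0.03. Among the 7, 1 was higher, 1 was lower and 5 did not pass, beside 17.7% called over all tested genes. Bcl9, a coactivator that binds β-catenin, was higher (log2 fold change 0.53 ± 0.09, adjusted p = 0.00543), and Tcf7l1, a TCF factor that mostly represses, was lower (-0.39 ± 0.09, adjusted p = 0.0225). The Tcf7l1 call was lost without WT replicate 1 (0.0959), WT replicate 2 (0.0697) or TCKO replicate 1 (0.0724), and with the replicate block the nuclear partners had 2 lower genes in place of 1. With replicates 1 and 2 summed in the blocked fit they had 0 (Tcf7l1, 0.0828), and the Axin2 call was lost as well (0.130). Lef1 had 3 to 20 counts and was not tested.

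**Figure D3:**
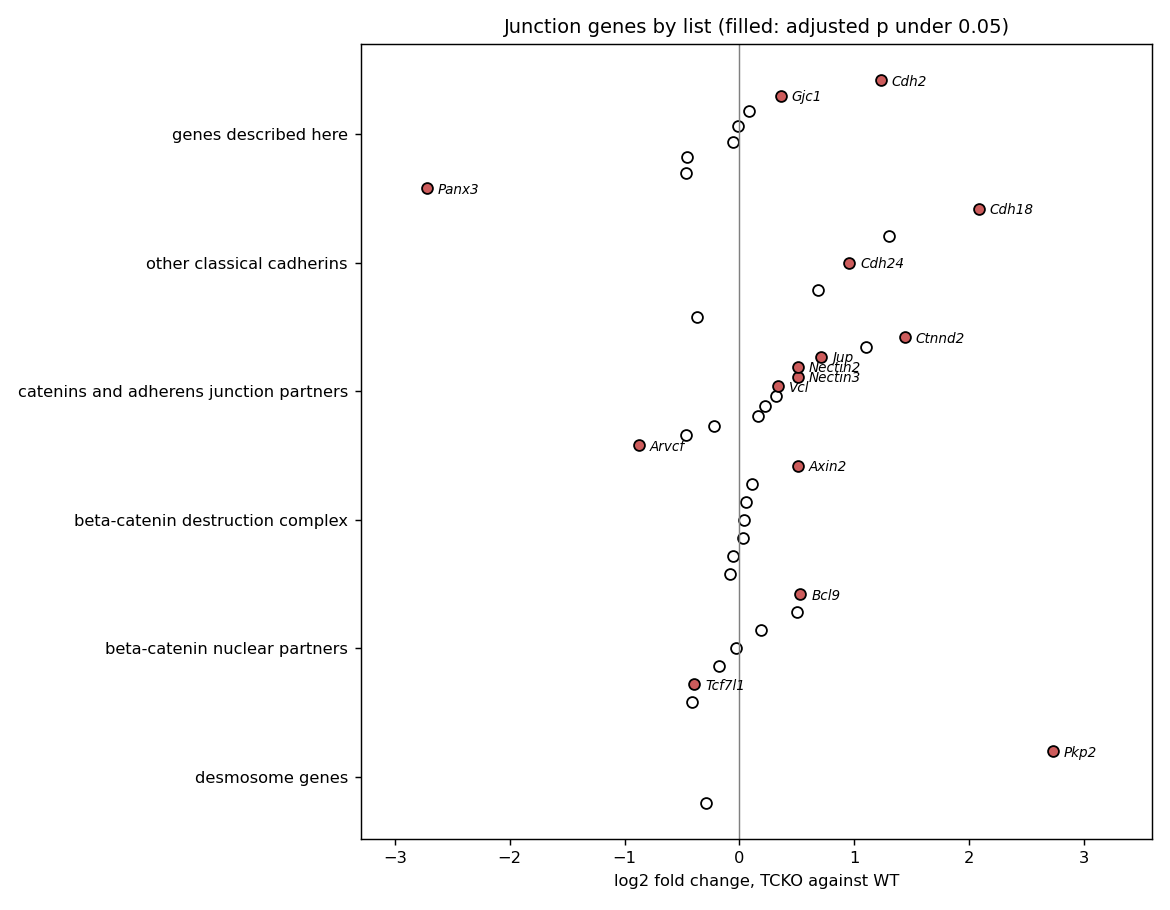
Log2 fold change of TCKO against WT for each tested gene of the 8 described here and of 5 lists of junction genes, 1 point per gene (filled, edgeR adjusted p under 0.05; open, not passed). Points of the destruction complex lie close to 0 apart from Axin2 at 0.51, while Panx3 at -2.72 and Pkp2 at 2.73 are the outermost.

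Gja1 encodes connexin 43, the main gap junction protein of osteoblasts and osteocytes (ENSMUSG00000050953, chromosome 10, 56377330 to 56402513, plus strand). Counts were 2703, 3540 and 3765 in WT against 3250, 3032 and 3372 in TCKO, or 327, 353 and 456 CPM and 371, 377 and 378 CPM. The 3 TCKO libraries lay within the range of WT, whose highest library was replicate 3. Its mean levels were 379 ± 68.3 and 375 ± 3.85 CPM. The log2 fold change was -0.01 ± 0.12, with a 95% interval from -0.36 to 0.33 (edgeR adjusted p = 0.953). In log2(CPM + 2), TCKO was higher by 0.14 over replicates 1 and 2, whereas the difference of replicate 3 was -0.27. Without replicate 3 of both genotypes the log2 fold change was 0.14 and passed (edgeR adjusted p = 0.0135), in a fit of 2 against 2 libraries that resemble each other closely and in which 6237 genes passed.

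Gjc1 encodes connexin 45, which osteoblasts express beside connexin 43 and which can form mixed channels with it (ENSMUSG00000034520, chromosome 11, 102799579 to 102819700, minus strand). It had 182, 210 and 171 counts in WT against 238, 222 and 241 in TCKO, or 22.0, 21.0 and 20.7 CPM and 27.2, 27.6 and 27.0 CPM. The spread within each genotype was small and the groups did not overlap. The log2 fold change was 0.36 ± 0.09 (edgeR adjusted p = 0.0274). The call was lost without WT replicate 1 (0.0777), WT replicate 2 (0.102), TCKO replicate 1 (0.0931) or TCKO replicate 2 (0.103), and with DESeq2 (0.0757).

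As a share of the summed RPKM of 20 connexin genes, Gja1 held 68.9%, 69.8% and 65.1% in WT and 61.1%, 60.3% and 59.3% in TCKO. The genotypes did not overlap, with a difference of -7.73 percentage points (exact permutation test, two-sided, p = 0.1, the smallest possible). In CPM not divided by gene length the difference was -3.76 points. Gjb2, connexin 26, was second in abundance, with 20.04% ± 1.74 in WT and 24.0% ± 1.66 in TCKO. The Gjc1 share was 8.02% ± 1.77 and 8.97% ± 0.252 (SD, n = 3; exact permutation test, two-sided, p = 0.6). The connexin sum was 54.7 ± 11.9 and 60.8 ± 1.49 RPKM (exact permutation test, two-sided, p = 0.4, n = 3).

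Gjb2 had 174, 228 and 299 counts in WT against 277, 300 and 325 in TCKO (log2 fold change 0.40 ± 0.20, edgeR adjusted p = 0.213). The groups overlapped through WT replicate 3, without which the log2 fold change became 0.68 (0.00677).

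Tjp1, the ZO-1 scaffold gene, whose product binds the tail of connexin 43, had 1192 to 1474 counts in WT and 1124 to 1554 in TCKO (log2 fold change 0.12 ± 0.13, adjusted p = 0.571). Of 9 desmosome genes 2 were tested, with 1 higher and 1 that did not pass, where 9.07% of all tested genes were higher. Pkp2, plakophilin-2, an armadillo protein of the desmosomal plaque, rose from 3.26 ± 1.28 to 21.4 ± 1.45 CPM, from 34, 18 and 32 against 201, 170 and 179 counts. Its log2 fold change was 2.73 ± 0.26 (edgeR adjusted p = 0.000616), and it passed in all 18 fits. Pkp1 did not pass (-0.29 ± 0.30, adjusted p = 0.550), and the desmosomal cadherins Dsg2, Dsg3, Dsc1, Dsc2 and Dsc3 had at most 7 counts in any library.

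Panx1 encodes the widely expressed pannexin channel (ENSMUSG00000031934, chromosome 9, 15002128 to 15045478, minus strand). It had 180, 205 and 135 counts in WT against 131, 114 and 119 in TCKO, or 21.8, 20.5 and 16.4 CPM and 15.0, 14.2 and 13.3 CPM. The groups did not overlap, and WT replicate 3 was the WT library nearest to TCKO. The log2 fold change of -0.47 ± 0.14 was just short of the threshold (edgeR adjusted p = 0.0557). It passed with the replicate block (-0.46, edgeR adjusted p = 0.0298) and without WT replicate 3 (-0.58, 0.0142). It also passed without replicate 3 of both genotypes (-0.53, 0.000311), which makes 3 of 18 fits. With replicates 1 and 2 summed in the blocked fit it did not pass (-0.42, 0.174).

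Panx3, the pannexin of osteoblasts and chondrocytes, showed the largest change of the 8 genes (ENSMUSG00000011118, chromosome 9, 37659902 to 37669235, minus strand). Counts were 378, 451 and 659 in WT against 43, 39 and 141 in TCKO, or 45.8, 45.0 and 79.9 CPM and 4.91, 4.85 and 15.8 CPM. Replicate 3 was the highest library of both genotypes, yet TCKO replicate 3 stayed below every WT library. The mean went from 56.9 ± 19.9 to 8.52 ± 6.32 CPM (log2 fold change -2.72 ± 0.45, edgeR adjusted p = 0.00602) with a 95% interval from -3.97 to -1.47. The difference in log2(CPM + 2) was -2.78 in replicates 1 and 2 and -2.20 in replicate 3. Without TCKO replicate 3 the log2 fold change was -3.53 (0.000494). Of 18 fits, the one with replicates 1 and 2 summed did not pass (-2.65, 0.0862), and with the replicate block added to it the value passed (-2.75, 0.00604).

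Panx3 held 78.2%, 79.0% and 89.3% of the RPKM of the 3 pannexin genes in WT and 35.7%, 36.9% and 67.5% in TCKO, a difference of -35.5 percentage points (exact permutation test, two-sided, p = 0.1, the smallest possible). In TCKO replicates 1 and 2, Panx1 therefore supplied most of the pannexin transcript, while in TCKO replicate 3 Panx3 still did. The pannexin sum was 19.9 ± 5.33 RPKM in WT and 4.88 ± 1.68 RPKM in TCKO (exact permutation test, two-sided, p = 0.1, n = 3). Panx2 had at most 3 counts in any library. The summed level of 15 chondrocyte markers was 6638 to 8549 CPM in WT and 804 to 1090 CPM in TCKO, with 13 of 14 tested genes lower and 0 higher (Ihh was at 0 to 2 counts), and that of 12 osteoblast markers was lower with 5 of 9 tested genes lower. Over all tested genes, 8.63% were lower. Panx3 is known from both cell types, and the part of these markers in its difference was not tested.

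**Figure D4:**
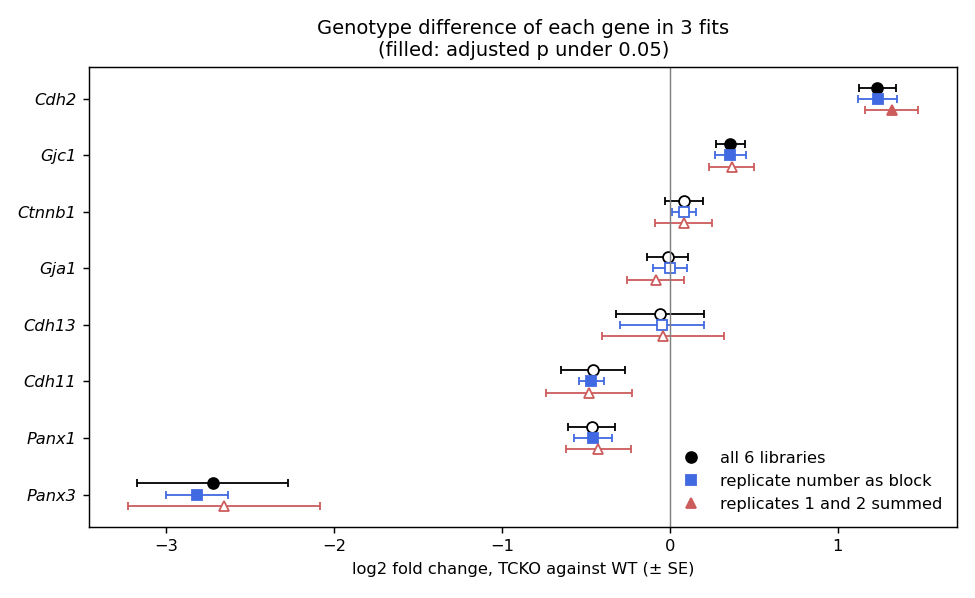
Log2 fold change of TCKO against WT with its SE for the 8 genes in 3 fits (black, all 6 libraries; blue, the replicate number as a block; red, replicates 1 and 2 summed; filled, edgeR adjusted p under 0.05). The estimates shifted little between fits, Cdh2 was filled in each, Panx3 at -2.72 was open when replicates 1 and 2 were summed, and Cdh11 and Panx1 were filled with the block.

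Markers of other cell types differed between the genotypes to unequal degrees. Their counts of called genes stand beside 9.07% higher and 8.63% lower over all tested genes. Of 10 endothelial markers, the sum was 3.89 to 6.79 CPM in WT and 40.2 to 103 CPM in TCKO, mostly Kdr. Of the 3 tested genes, 2 were higher, with a median log2 fold change of 2.47. With WT levels this low, the tested genes may have passed the count filter only through the TCKO libraries, which was not tested. No difference of the list is therefore read from their calls or median. The endothelial genes Pecam1, Cdh5, Tie1, Emcn and Cldn5 had at most 7 counts in any library. The 9 smooth muscle and pericyte markers summed to 2186 to 2382 CPM in WT and 2503 to 2957 CPM in TCKO, with 2 of 7 tested genes higher and 2 lower, and 9 keratinocyte and epithelial markers to 1.82 to 5.49 CPM and 0.112 to 1.99 CPM. Of this last list 1 gene was tested. It was lower, but it passed the count filter only through the WT libraries, so no difference of the list can be read from its call. The 10 macrophage and osteoclast markers summed to 392 to 699 CPM and 157 to 534 CPM (2 of 8 tested lower), the 9 Schwann cell and neuron markers to 77.9 to 101 CPM and 76.6 to 86.4 CPM (1 of 3 lower), the 6 adipocyte markers to 21.3 to 31.2 CPM and 14.1 to 15.8 CPM (1 of 2 lower), and the 8 skeletal muscle markers to 7.48 to 21.9 CPM and 6.17 to 18.6 CPM (0 of 3 called). The part of these markers in the differences of Cdh2, Gjc1 and the junction lists was not tested.

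The order of the 8 genes by RPKM, a level per kilobase of exon, changed with the genotype. In WT it was Ctnnb1 (139), Cdh11 (92.3), Gja1 (36.9), Panx3 (16.6), Cdh2 (10.2), Gjc1 (4.25), Panx1 (3.24) and Cdh13 (0.220 RPKM), and the libraries of neighbours in this order did not overlap. In TCKO the levels were 147 for Ctnnb1, 67.3 for Cdh11, 36.6 for Gja1, 24.0 for Cdh2, 5.45 for Gjc1, 2.48 for Panx3, 2.35 for Panx1 and 0.212 RPKM for Cdh13. Panx3 thus stood in place 4 in WT and 6 in TCKO, where its libraries overlapped those of Panx1 and the other neighbours were again separate. Among all tested genes Panx3 moved from percentile 76.4 to 29.5 of mean RPKM, and Cdh2 from 65.4 to 83.5.

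For Panx3 and Cdh2, the genes with the largest absolute log2 fold changes of the 8, the most similar profiles over the 6 libraries were sought among 9261 genes with a mean of at least 100 counts. The measure was the root-mean-square difference of log2 CPM after each profile was centred on its mean. This log2 CPM had a prior of 2 counts, scaled to library size, in place of the 2 CPM added elsewhere. Nearest to Panx3 were Aqp1, a water channel gene (0.181), Ptprv, a receptor-type phosphatase gene of bone (0.423), and Limch1 (0.424). Aqp1 had 1179, 1330 and 1512 counts in WT against 143, 113 and 481 in TCKO, and like Panx3 it was higher in TCKO replicate 3 than in the other TCKO libraries. Nearest to Cdh2 were Stom (0.0323), Rab3ip (0.0695) and Marcksl1 (0.0865), and Stom had 255, 289 and 193 counts in WT against 537, 515 and 624 in TCKO. The points share libraries, depth and genotype, so likeness is a description over 6 libraries only.

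**Figure D5:**
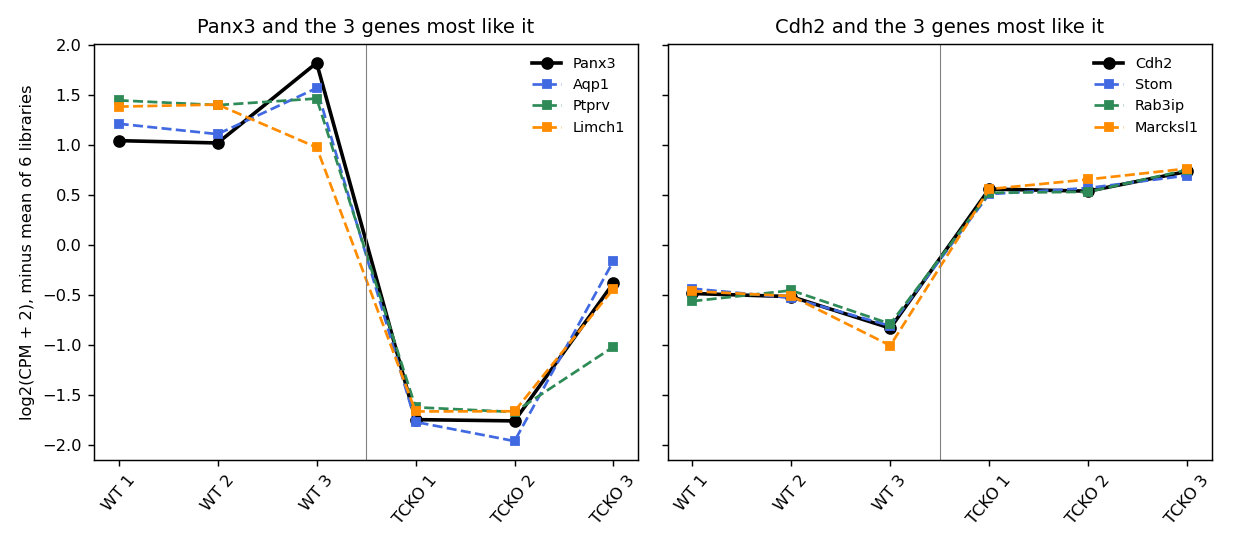
Centred log2(CPM + 2) of Panx3 (left) and Cdh2 (right) in each library with the 3 genes of most similar profile. Panx3 and Aqp1 both rise in TCKO replicate 3, and the Cdh2 group is lowest in WT replicate 3 and highest in TCKO replicate 3.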

How the data were processed

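The authors aligned reads to GRCm38 (Ensembl release 99) with STAR 2.7.0e and counted them per gene with featureCounts 2.0.0. The deposited values are raw counts, with gene length as summed exon length in bp. The strand setting and the treatment of shared reads are not given in the sources used here, although the library kit was directional. Of the sample columns 0 were left unassigned, and 0 rows lacked a gene. Symbols matched 55144 of 55471 genes (99.4%). Coordinates are those of the deposited table.

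Counts were tested with edgeR 4.0.16 in R 4.3.3 (filterByExpr, TMM, glmQLFit and glmQLFTest, no covariates, all 6 libraries), with Benjamini-Hochberg adjustment over 13826 genes. CPM and RPKM use TMM-scaled library sizes and the deposited length. SEs come from the quasi-likelihood F. The 95% intervals used these SEs with the t quantile at 4 degrees of freedom, fewer than the edgeR test uses. They are therefore wider than its p-values imply. Depth was 8019999 to 10177214 counts per library, and floors cover counting error only. On data simulated for TCKO against WT with 13826 genes, 34.3% of 1.5-fold, 91.0% of 2-fold and 98.5% of 4-fold changes were recovered. Of the genes called there, 6.29% were false calls. Whether these rates hold for genes with few counts, such as Cdh13, was not tested. Nor was it tested whether they hold when replicates 1 and 2 are much closer to each other than to replicate 3.

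The 8 genes and all lists were chosen with earlier results of these data known, so counts over them are descriptions. Named beside the 8 genes were genes of the junction lists with an adjusted p under 0.05 (at most the 6 of largest absolute log2 fold change per list), the 2 most abundant of a list, genes needed for a share, and the 3 genes most like Panx3 and Cdh2. Cdh1, Cdh5, Cdh10, Pkp4, Lef1, Panx2, the desmosomal cadherins and single markers were named after their counts were seen. A few genes of the lists are not reported here.

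Replicate numbers from the sample titles were checked for pairing. The departures of same-numbered libraries from their genotype means correlated by 0.204, 0.214 and 0.347, each over 0.1, and the numbers were therefore treated as pairs. WT replicate 2 correlated best with TCKO replicate 1 (0.225), and WT replicate 1 with TCKO replicate 2 also passed 0.1 (0.188). Replicates 1 and 2 correlated with replicate 3 of the other genotype by -0.28 to -0.25. The check thus sets replicate 3 apart, but it cannot show which of replicates 1 and 2 belong together. The alternatives were RLE and upper-quartile factors, a minimum mean of 50 counts, no filter beyond 1 count, DESeq2 1.42.0 with and without an RPKM minimum of 0.24, a robust fit, the replicate block, replicates 1 and 2 summed with and without the block, no replicate 3, each library left out and, for the shares, CPM not divided by gene length.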

Additional observations from a re-analysis of the deposited data

How the results depend on the processing

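The count of lower genes among the 8 was 1. It became 2 with no filter beyond 1 count, 3 with the replicate block and without replicate 3 of both genotypes, and 0 with replicates 1 and 2 summed, and lay between 1 and 2 with single libraries left out. The count of higher genes was 2 and became 1 with no filter, with DESeq2, with DESeq2 and an RPKM minimum, and with replicates 1 and 2 summed with or without the block, in each case through the loss of Gjc1. It became 3 without replicate 3 of both genotypes, with Gja1 added, and with single libraries left out it was 1 to 2. Genes past a fold change of 2 numbered 2, 1 with replicates 1 and 2 summed, and 2 to 2 with single libraries left out. Over all tested genes the 2447 calls became 386 with replicates 1 and 2 summed, 1150 with the block added, 6237 without replicate 3 of both genotypes, and 1153 to 3122 with single libraries left out. The replicate block gave 3249 calls and changed no call of the 8 genes other than those of Cdh11 and Panx1. The difference in share, in percentage points, ranged from -21.3 to -13.5 for Cdh11, -9.14 to -6.82 for Gja1 and -45.9 to -30.0 for Panx3 with single libraries left out, and in CPM not divided by gene length it was -17.3, -3.76 and -38.3.

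Among the named genes, directions turned only for 4 with log2 fold changes near 0. Gja1 was 0.00087 with the replicate block, 0.14 without replicate 3 of both genotypes and -0.11 to 0.14 with single libraries left out. Single omissions gave -0.20 to 0.051 for Cdh13, -0.013 to 0.084 for Axin1 and -0.11 to 0.042 for Pygo2, which was 0.015 with replicates 1 and 2 summed and 0.0088 with the block added. The cause of these shifts was not tested. Cdh13 gave no value under a minimum mean of 50 counts or an RPKM minimum.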
